A study of Mus musculus with 6 samples.

Results

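Glypicans and syndecans are the main families of cell-surface heparan sulfate proteoglycans, and their transcripts were followed in sorted cells of the embryonic mouse genital tubercle. The members were all probe sets, the groups of short probes that each give 1 signal, that the array annotation assigns to 1 gene alone among Gpc1, Gpc2, Gpc3, Gpc4, Gpc6, Sdc1, Sdc2, Sdc3 and Sdc4. This gave 9 genes of 18193 on the array and 23 probe sets of 45037, 10 of them for the 5 glypicans and 13 for the 4 syndecans. The reporter-positive group held 3 arrays of cells that the labels call urethral epithelium, and the reporter-negative group held 3 arrays of the other tubercle cells. All embryos were at 12.5 dpc, on a mixed background, with males and females pooled. Both groups carried the same alleles, Shhtm1(EGFP/cre)Cjt, which makes Cre from the Shh locus, and Gt(ROSA)26Sortm3(CAG-EYFP)Hze, a yellow fluorescent reporter that Cre switches on and that then stays on in the descendants of a cell. Each array came from a pool of littermates. In both groups replicate 1 pooled 3 embryos, replicate 2 pooled 5 and replicate 3 pooled 2. The labels do not say whether the positive and negative pools of equal size were the same embryos. The negative group is a mixture of every cell without the reporter, so it stands for no single cell type.

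Glypicans are held in the outer membrane leaflet by a lipid anchor and carry heparan sulfate chains close to the cell surface. Syndecans cross the membrane, carry their chains far from it, and bind cytoplasmic proteins through a short tail. The sulfated chains bind secreted signals such as hedgehog, Wnt, FGF and BMP proteins, and the core proteins can promote or restrain the response of a cell to them. Hedgehog from the urethral epithelium acts on the neighbouring mesenchyme of the tubercle as it grows out. The comparison addressed which of these cell-surface proteoglycans differ between the Shh lineage and the cells around it.

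Array brightness limits the values below. The median signal over 45037 probe sets was 3.78, 2.99 and 0.28 in positive replicates 1, 2 and 3, against 6.21, 7.0 and 1.83 in negative replicates 1, 2 and 3. The spiked bacterial hybridization controls had means of 1443.1 to 1884.5 over the 6 arrays. The 3′ beta-actin control read 23.4 in positive replicate 3 and 1018 to 3672 on the other 5 arrays, and the Spearman correlation of positive replicate 3 with the others was 0.303 to 0.317 across probe sets. Background was taken as the brightest of 27 control probe sets whose transcripts were not added, 1.12 to 8.28 on the 6 arrays. Of the 23 member probe sets, 19, 20 and 10 exceeded it in positive replicates 1, 2 and 3 and 20, 19 and 16 in negative replicates 1, 2 and 3. Fitted differences are therefore given with all 6 arrays and, where the probe set was tested there, with the 5 arrays without positive replicate 3. Shh checked the sort: its brightest probe set read 287, 718 and 16.9 in the positive arrays, against 1.31, 18.4 and 2.51 in the negative arrays. In bulk samples of this kind, fewer cells that make a transcript and less transcript per cell cannot be told apart.

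No member passed the test over the whole table, and 5 of the 6 probe sets whose groups did not overlap had the lower values in reporter-positive cells. Of the 23 probe sets 21 were bright enough to be tested, and none had an adjusted p under 0.05 (limma with Benjamini-Hochberg adjustment; 2 did with array weights, as given for Gpc3), where 0.0127% of 31526 tested probe sets did. Without positive replicate 3, none of 20 tested members passed, where 0.441% of all tested probe sets did. At an unadjusted p under 0.05 limma counted 5 of 21 members against 4.25% of all probe sets, and 5 of 20 without positive replicate 3 against 7.6%. In the 6 arrays, 5 members had all positive arrays below all negative arrays, against 6.53% of all tested probe sets in that direction. These were the probe sets of Gpc1, Gpc3 and Sdc3 described below and 2 of Sdc1. One member, a probe set of Sdc4, had all positive arrays above all negative arrays, against 5.66% of all probe sets. Without positive replicate 3 the counts were 6 of 20 lower, against 11.2% of all probe sets, and 2 of 20 higher, against 11.6%. Probe sets of 1 gene measure the same transcripts, so these counts are not of independent items. The separation depends on how arrays of unequal brightness are scaled: with arrays centred on their medians 1 of 20 tested members, the Sdc3 probe set, separated the groups in either direction, against 7.41% of all tested probe sets. With values as deposited none of 20 did, against 5.38%. With the brightest probe set per gene 3 of 9 did, against 13.2% of genes. Median centring and the deposited values placed the median of all tested probe sets at -0.13 and -0.32, and 18 and 19 of 20 tested members had a negative sign. The share of negative signs over all probe sets was not taken there. The median log2 difference, positive minus negative, was -0.07 over the 21 members, -0.03 over the 10 glypican and -0.21 over the 11 syndecan probe sets, and 0.00 over all 31526. Over the 20 members of the 5-array fit it was -0.17, against -0.01 over all probe sets there.

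**Figure D1:**
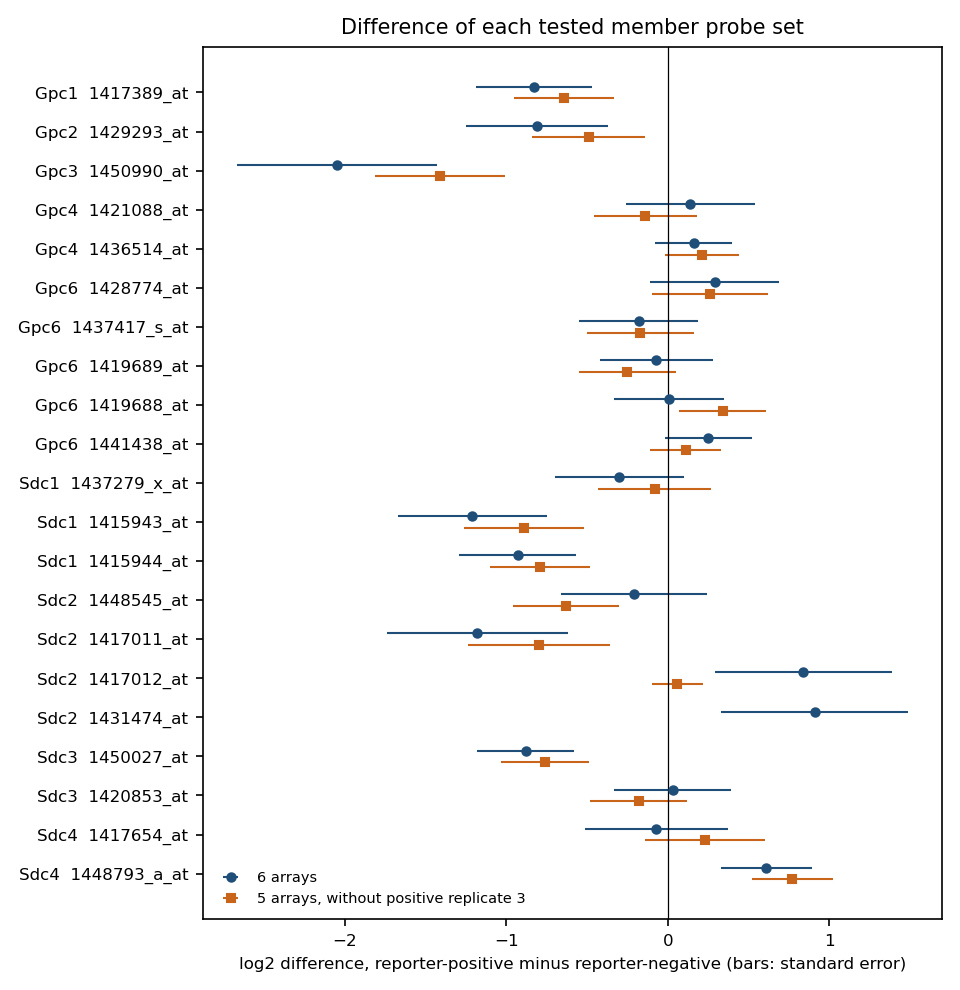
Log2 difference, reporter-positive minus reporter-negative, of the 21 tested member probe sets (horizontal axis) with bars of 1 standard error, from the 6 arrays (circles) and the 5 arrays without positive replicate 3 (squares). Gpc3 lies lowest at -2.05 and -1.41, while Gpc4 and Gpc6 lie within 0.34 of 0 in both fits.

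Gpc3 had the lowest difference of all members. It encodes a glypican that in mouse binds hedgehog and limits its signalling, and whose loss causes overgrowth. Its 1 probe set, 1450990_at, had a normalized log2 signal of 6.73, 5.48 and 4.05 in positive replicates 1, 2 and 3, against 7.58, 7.68 and 7.16 in the negative replicates. The groups did not overlap, and the positive arrays were spread far more widely than the negative ones, at 5.42 ± 1.34 against 7.47 ± 0.28 (SD, n = 3 each). In the 6 arrays the fit gave -2.05 (SE 0.62, adjusted p = 0.77, limma), and without positive replicate 3 it gave -1.41 (SE 0.40, adjusted p = 0.228, limma). Between arrays of equal pool size it was -0.85, -2.20 and -3.10 for replicates 1, 2 and 3. As deposited, Gpc3 read 80.8, 18.6 and 0.06 in the positive arrays, against 302, 459 and 46.4 in the negative arrays. The value of 0.06 lies below the background of 1.12 on positive replicate 3, so that array shows only that Gpc3 was not detected on it. When arrays were weighted by their fit to the model, which gave positive replicate 3 a weight of 0.115 and the others 0.661 to 4.20, the difference passed at -1.56 (SE 0.35, adjusted p = 0.00303, limma). In that fit 2 of 21 members were called lower, Gpc3 and the Sdc1 probe set 1415943_at, against 1.15% of all probe sets. By the size of the difference, 0.0761% of the 31526 probe sets lay as low as Gpc3 in the 6 arrays and 0.187% in the 5 arrays.

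The start of Gpc3 is shown because it is the member with the lowest difference, beside that of Sdc1, the syndecan with the lowest. RefSeq promoter windows of build GRCm38.p6, 250 bases before to 50 after the transcript start, were given for 6 of the 9 genes. GC boxes, GGGCGG on either strand, are in capitals; the Gpc3 window is chrX:52613925-52614224 on the minus strand and the Sdc1 window chr12:8771146-8771445 on the plus strand.
Gpc3: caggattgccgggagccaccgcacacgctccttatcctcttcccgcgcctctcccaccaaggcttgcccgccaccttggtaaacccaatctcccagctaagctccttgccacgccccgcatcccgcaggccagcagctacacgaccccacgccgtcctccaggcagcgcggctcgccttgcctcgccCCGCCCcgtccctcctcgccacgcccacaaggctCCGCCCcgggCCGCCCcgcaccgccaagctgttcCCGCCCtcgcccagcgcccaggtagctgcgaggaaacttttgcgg
Sdc1: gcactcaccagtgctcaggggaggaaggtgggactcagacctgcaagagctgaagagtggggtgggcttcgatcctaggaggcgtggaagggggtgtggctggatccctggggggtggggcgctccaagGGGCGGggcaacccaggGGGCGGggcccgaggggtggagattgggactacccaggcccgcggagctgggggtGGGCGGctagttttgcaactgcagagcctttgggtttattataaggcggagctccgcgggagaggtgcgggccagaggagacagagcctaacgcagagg
The Gpc3 window held 4 GC boxes and 30 CpG dinucleotides and the Sdc1 window 3 and 14, against a median of 7 CpG over 32851 windows. All 6 member windows held at least 1 GC box, where 35.7% of all windows did. None of the 6 held TATAAA, the Gli motif GACCACCCA or the E-box CACCTG on either strand, where 13.6%, 0.3% and 20.2% of all windows did. These are matches of letters in the sequence and say nothing about binding.

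Gpc4, the neighbour of Gpc3 on the X chromosome and a glypican of progenitor cells, gave differences near 0 under quantile normalization. Its brighter probe set 1421088_at measured 5.27, 5.76 and 6.32 in the positive arrays, against 5.84, 5.62 and 5.46 in the negative arrays. The groups overlapped, with a difference of 0.14 (SE 0.40, adjusted p = 0.927, limma) that was -0.14 (SE 0.32) without positive replicate 3. With median centring and with values as deposited it was -0.77 and -0.96. The dimmer probe set 1436514_at, above background on 2 of 3 arrays in either group, differed by 0.16 (SE 0.24), and by 0.21 (SE 0.23) without positive replicate 3. Over its 5 probe sets Gpc6, a glypican of mesenchyme and growing bone, differed by -0.18 to 0.29 in the 6 arrays and by -0.25 to 0.34 without positive replicate 3. The brightest, 1428774_at, measured 6.15 ± 0.31 in positive arrays and 5.86 ± 0.36 in negative arrays (SD, n = 3 each). Among these probe sets 1419688_at alone separated the groups without positive replicate 3, and it overlapped with all 6 arrays.

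Gpc1, a widely expressed glypican, was lower in each positive array than in any negative one. Its probe set 1417389_at measured 4.96, 4.75 and 4.14 in the positive arrays, against 5.13, 5.93 and 5.30 in the negative arrays. The deposited 0.09 on positive replicate 3 lay below its background of 1.12, so Gpc1 was not detected on that array. The gap between the lowest negative and the highest positive array was small beside the spread within the groups, and the difference was -0.83 (SE 0.36, adjusted p = 0.77, limma). Without positive replicate 3 it was -0.64 (SE 0.31, adjusted p = 0.663). Gpc2, known from the developing nervous system, measured 5.90, 4.90 and 4.34 on 1429293_at in the positive arrays, against 5.88, 5.96 and 5.70 in the negative arrays. Positive replicate 1 lay within the negative range, and the difference of -0.81 (SE 0.44) was -0.49 (SE 0.35) without positive replicate 3. A further probe set is annotated to both Gpc2 and Gal3st4 and was not counted as a member. It measured 4.40, 4.34 and 6.91 in the positive arrays, against 4.45, 4.63 and 4.72 in the negative arrays. Its high normalized value in positive replicate 3 stems from a deposited signal of 2.39 on that dim array.

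**Figure D2:**
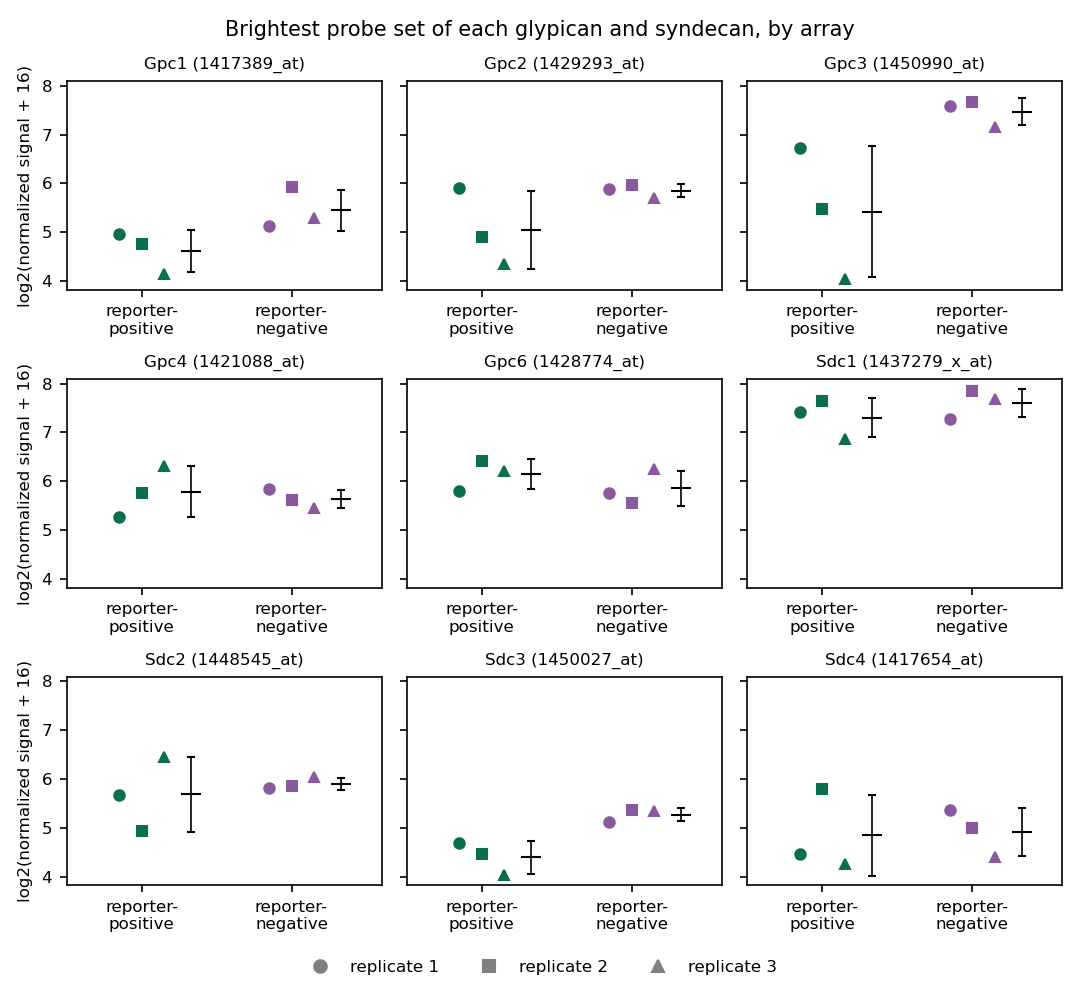
Normalized log2 signal (vertical axis) of the brightest probe set of each of the 9 genes in the 3 reporter-positive arrays (left) and the 3 reporter-negative arrays (right); marker shape gives the replicate, and the bar is the group mean ± SD. Gpc1, Gpc3 and Sdc3 separate the groups, and the other 6 overlap.

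Sdc1, the syndecan best known from epithelia and also made by condensing embryonic mesenchyme, was lower in reporter-positive cells on 2 of its 4 probe sets and close to level on the brightest. On 1415943_at it measured 5.92, 5.61 and 4.70 in the positive arrays, against 6.64, 7.08 and 6.14 in the negative arrays. The groups lay apart by -1.21 (SE 0.46, adjusted p = 0.77, limma), and -0.89 (SE 0.37, adjusted p = 0.561) without positive replicate 3. On 1415944_at it measured 5.33, 4.95 and 4.55 against 5.79, 6.02 and 5.82 in the positive and the negative arrays, a difference of -0.93 (SE 0.36), and -0.79 (SE 0.31) without positive replicate 3. Neither pair of groups overlapped, and neither difference passed the threshold. The array-weighted fit called the first of them (difference -1.14, SE 0.33, adjusted p = 0.0384, limma). On positive replicate 3 both probe sets lay below the background of 1.12, at 1.01 and 0.92 as deposited, so neither was detected on that array. The brightest probe set, 1437279_x_at, measured 7.42, 7.64 and 6.86 in the positive arrays, against 7.28, 7.85 and 7.68 in the negative arrays. Here the groups overlapped and the difference was -0.30 (SE 0.40), and -0.08 (SE 0.35) without positive replicate 3. The suffix x in its name marks probes that can also bind similar transcripts of other genes. The fourth probe set, 1448158_at, was not above background on any negative array and on 1 of 3 positive arrays, and was too dim to be tested. The probe sets of Sdc1 thus disagreed in size, and none was higher in the positive group among the 3 tested.

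Sdc3, a syndecan of neural cells, cartilage and muscle precursors, separated the groups on its brightest probe set. On 1450027_at it measured 4.70, 4.46 and 4.03 in the positive arrays, against 5.12, 5.36 and 5.34 in the negative arrays. The fitted value was -0.88 (SE 0.30, adjusted p = 0.77, limma), and -0.76 (SE 0.27, adjusted p = 0.431) without positive replicate 3. As deposited these values were 10.2, 4.59 and 0.05 in the positive arrays, where the background was 4.47, 4.41 and 1.12, so positive replicate 2 stood barely above it and positive replicate 3 below. A second probe set of Sdc3, 1420853_at, overlapped between the groups with a difference of 0.03 (SE 0.36), and -0.18 (SE 0.30) without positive replicate 3. The third, 1436482_a_at, was above background on 1 positive and no negative array and was not tested.

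Sdc2, a syndecan of mesenchymal and vascular cells, was uneven across its 4 probe sets and across positive arrays. On 1417011_at it measured 6.45, 4.70 and 4.26 in the positive arrays, against 6.66, 6.42 and 5.88 in the negative arrays. Positive replicate 1 lay among the negative arrays and the other 2 below them, with a difference of -1.18 (SE 0.56, adjusted p = 0.77, limma), and -0.80 (SE 0.44) without positive replicate 3. On 1448545_at the difference was -0.21 (SE 0.45), and -0.63 (SE 0.33) without positive replicate 3, where the remaining groups did not overlap. That change comes from a deposited signal of 2.08 on positive replicate 3, which normalization placed at 6.46. The 2 dimmest probe sets were high on that array alone. On 1417012_at, with a difference of 0.84 (SE 0.55), positive replicate 3 stood at 6.59 and the other 5 arrays at 4.01 to 4.33. On 1431474_at, which was not above background on any negative array and only on positive replicate 3 among the positive ones, positive replicate 3 stood at 6.73 and the other 5 arrays at 4.01 to 4.31. The fitted 0.91 for it in the plot of differences rests on that 1 array and is no difference between the groups. Without positive replicate 3, 1417012_at differed by 0.06 (SE 0.16) and 1431474_at was too dim to be tested.

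Sdc4, a widely expressed syndecan of focal adhesions, had the only member probe set whose normalized signal was higher in every positive array than in any negative one. On 1448793_a_at it measured 5.19, 4.86 and 4.77 in the positive arrays, against 4.52, 4.45 and 4.03 in the negative arrays. The fitted value was 0.61 (SE 0.28, adjusted p = 0.77, limma), and 0.77 (SE 0.25, adjusted p = 0.338) without positive replicate 3. As deposited the values were 20.6, 8.66 and 1.05 against 11.5, 11.6 and 0.12 in the positive and the negative arrays, so the separation appeared only after normalization. Replicate 3 lay below background in both groups, 1.12 on the positive and 2.03 on the negative array, so neither of these arrays detected the probe set. On the brighter probe set 1417654_at the groups overlapped, with 4.47, 5.80 and 4.27 in the positive arrays, against 5.36, 4.99 and 4.40 in the negative arrays, and a difference of -0.07 (SE 0.44). In the 5 arrays it was 0.23 (SE 0.37).

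Marker lists of the sorted cells and of other cell types were read beside these differences. Of 10 mesenchymal markers all 10 had a negative difference and none passed in either fit, with a median log2 difference of -1.78, and -1.45 without positive replicate 3. Their list median against the negative mean was -0.07, -2.67 and -2.44 in positive replicates 1, 2 and 3. Their summed normalized signal was 2397, 166 and 392 in the positive arrays, against 2372 to 3048 in the negative arrays, so positive replicate 1 held as much mesenchymal signal as negative arrays. Col1a2, a fibrillar collagen of mesenchyme, read 358, 22.5 and 1.80 as deposited in the positive arrays, against 1097, 1069 and 215 in the negative arrays. Gpc3 was lower than the negative mean by differences of -0.74, -1.99 and -3.42 in positive replicates 1, 2 and 3, and Sdc1 on 1415943_at by -0.70, -1.01 and -1.93. All 10 epithelial markers had a positive difference, 2 of them past the threshold in the 6 arrays and 10 in the 5, and their sum was 1269 to 3234 in the positive arrays, against 64.8 to 71.3 in the negative arrays. Epcam, an epithelial adhesion protein, differed by 1.94 in the 6 arrays (adjusted p = 0.77, limma) and was higher by 1.81 in the 5 (adjusted p = 0.026). All 5 measured erythroid markers had a negative difference, with none past the threshold in the 6 arrays and 5 in the 5, and sums of 627 to 1495 against 3124 to 5998 in the positive and the negative arrays. Leukocyte markers had sums of 60.2 to 140 in the positive arrays, against 10.01 to 30.4 in the negative arrays, with 4 of 5 tested markers of positive sign and none called in the 6 arrays, and 3 of 6 called higher in the 5. Surface ectoderm markers had sums of 375 to 491 against 77.8 to 150 in the positive and the negative arrays, with 5 of 6 markers of positive sign in both fits, none called in the 6 arrays and 3 called higher in the 5.

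Vascular, neural and muscle transcripts were scarce in both groups. Of 8 endothelial markers 2, 8 and 8 were not above background in positive replicates 1, 2 and 3 and 3, 5 and 5 in the negative replicates. Their sums were 21.5 to 53.6 in positive and 23.0 to 34.6 in negative arrays, and Pecam1, an endothelial adhesion protein, was below 1 on all 6 arrays as deposited. Of 3 measured neural and glial markers all were below background in the positive arrays, with sums of 5.195 to 15.9 in positive and 7.53 to 11.8 in negative arrays. Of 4 muscle markers 2 to 4 were below background in the positive and 1 to 4 in the negative arrays, with sums of 11.0 to 43.6 and 1.39 to 47.9. No marker of these 3 lists was called. The part of any of these cell types in the differences of the glypicans and syndecans was not tested.

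**Figure D3:**
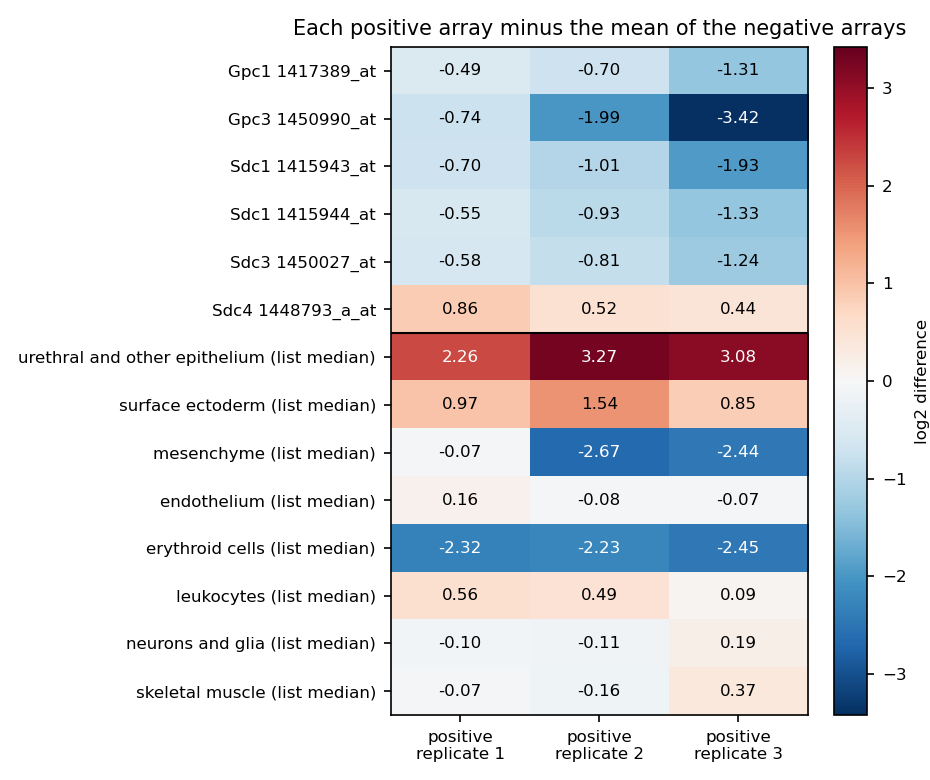
Log2 difference of each positive array (columns) from the mean of the 3 negative arrays for the 6 member probe sets whose groups did not overlap (upper rows) and for the median of each marker list (lower rows); red is higher and blue lower in the positive array. Gpc3 runs from -0.74 to -3.42 and the mesenchymal median from -0.07 to -2.67.

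The enzymes that build heparan sulfate showed no called difference in the 6-array and the 5-array fits, with a few members apart from the rest. Array weights called Ugdh and Hs3st3b1 among them, as given in the closing section. Genes were taken with their brightest probe set, for which the median log2 difference over all 14723 tested genes was -0.02. Of 10 tested genes for the linker and the chain itself, 3 had a positive and 7 a negative sign, and the median was -0.13, and -0.06 without positive replicate 3. Extl3, which starts the chain, measured 5.69, 4.94 and 5.84 in the positive arrays, against 5.98, 6.25 and 6.50 in the negative arrays, a difference of -0.75 (SE 0.41), and -0.98 (SE 0.35) without positive replicate 3. The polymerase subunit Ext2 and the xylose kinase Fam20b were at -0.51 (SE 0.47) and -0.34 (SE 0.43) in the 6 arrays. In the 5 arrays they were at -0.03 (SE 0.34) and 0.05 (SE 0.33). Of 11 genes for sulfation and epimerization, 5 had a positive and 6 a negative sign, with a median of -0.08, and -0.04 over 10 genes without positive replicate 3. The sulfotransferase Hs3st3b1 differed by -1.17 (SE 0.49) and Hs6st2 by -0.50 (SE 0.45), and for both genes the groups overlapped. In the 5 arrays they were at -1.03 (SE 0.42) and -0.13 (SE 0.35). Hs3st4, 1 of the 5 genes of positive sign in the 6 arrays, was not above background on any negative array. It was tested through positive replicate 3 alone, at 5.55 with 4.01 to 4.08 on the other arrays, so no group difference is given.

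Among 9 tested genes that supply the precursors the median was -0.32, and 0.15 over 10 genes without positive replicate 3. Ugdh, the enzyme that makes the glucuronic acid donor for the chains, measured 6.61, 4.96 and 4.67 in the positive arrays, against 7.04, 7.10 and 7.07 in the negative arrays. The groups did not overlap, and the fit gave -1.66 (SE 0.53, adjusted p = 0.77, limma), and -1.34 (SE 0.43, adjusted p = 0.335) without positive replicate 3. On that array Ugdh read 1.0 as deposited, below the background of 1.12. The sugar transporter Slc35d2 was above background on 3 positive and no negative arrays. It did not overlap after normalization and did not pass (adjusted p = 0.77, limma, and 0.549 without positive replicate 3). As deposited it read 4.81, 8.56 and 1.35 in the positive arrays, against 4.77, 0.59 and 1.45 in the negative arrays. Normalization placed the 1.35 on positive replicate 3 at 5.29, the highest of the 6 arrays. A lower bound of 1.44-fold sets the normalized positive mean against the dimmest signal above background on each negative array. That bound rests in part on positive replicate 3. Uxs1, which makes the xylose donor, differed by -0.62 (SE 0.59), and by -0.44 (SE 0.50) without positive replicate 3. Among 9 tested genes for editing, release and turnover all had a negative sign, with a median of -0.38, but without positive replicate 3 the median was -0.07 and 2 were positive. Notum, a secreted enzyme that inactivates Wnt proteins and was first described as cutting glypican anchors, measured 4.10, 4.60 and 4.05 in the positive arrays, against 4.91, 4.77 and 5.11 in the negative arrays. Its difference was -0.68 (SE 0.27, adjusted p = 0.77, limma), and -0.65 (SE 0.26, adjusted p = 0.522) without positive replicate 3. Notum was above background on 1 positive and 3 negative arrays, with 1.22 and 0.06 as deposited in positive replicates 1 and 3. The size of its difference is therefore uncertain. The proteases Mmp14 and Adam17, both known to shed syndecans, differed by -0.71 (SE 0.68) and -0.57 (SE 0.49), and by 0.15 (SE 0.39) and -0.01 (SE 0.32) without positive replicate 3.

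Of the proteins at the syndecan tail, ezrin stood apart. Ezr, which links membrane proteins to actin, measured 6.64, 7.08 and 7.89 in the positive arrays, against 4.98, 4.66 and 4.72 in the negative arrays. It did not pass in the 6 arrays (difference 2.41, SE 0.43, adjusted p = 0.29, limma) and was higher without positive replicate 3 (2.19, SE 0.32, adjusted p = 0.00141). Cask, a scaffold that binds syndecan tails, and Tiam1, a Rac activator, differed by -1.15 (SE 0.57) and -0.84 (SE 0.47), and by -0.59 (SE 0.40) and -0.42 (SE 0.35) without positive replicate 3. The 7 genes of this list had a median of 0.07, and 0.08 without positive replicate 3. Ezr was the 1 gene of the 6 heparan sulfate lists called in the 5 arrays, where 100 of 14390 tested genes were called. Among 5 other heparan sulfate proteoglycans 4 had a positive difference, with a median of 0.46, and 0.56 over 4 genes without positive replicate 3. None was called in either fit. Array weights called Col18a1, and also Ezr, as given in the closing section. Col18a1, the basement membrane collagen that carries heparan sulfate, measured 6.29, 7.69 and 8.05 in the positive arrays, against 5.07, 5.69 and 6.37 in the negative arrays, a difference of 1.63 (SE 0.56, adjusted p = 0.77, limma), and 1.33 (SE 0.44, adjusted p = 0.371) without positive replicate 3. Agrn, a basement membrane proteoglycan, measured 6.74, 6.58 and 7.87 against 6.31, 6.49 and 5.81 in the positive and the negative arrays, a difference of 0.86 (SE 0.47), and 0.48 (SE 0.36) without positive replicate 3. The co-receptor Tgfbr3 differed by 0.46 (SE 0.33), and by 0.65 (SE 0.29) without positive replicate 3. Gpc5, a glypican outside the 9 that was counted in this list, read 0.56, 0.10 and 1.15 as deposited in the positive arrays, against 6.87, 2.89 and 0.10 in the negative arrays, and exceeded background on 1 array of each group. Its place among the 4 of positive sign rests on positive replicate 3, normalized to 4.96. The other positive arrays stood at 4.05 and 4.01 and the negative arrays at 4.02 to 4.33. Without positive replicate 3 Gpc5 was not tested.

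The genes whose values ran most like those of Gpc3 were Synpo, Prrx1 and Gas1. Likeness was the root mean square distance between log2 values over the 6 arrays, each gene less its own mean, over the brightest probe sets of 18192 other genes. Synpo, an actin-associated protein, lay at 0.274, Prrx1, a mesenchymal transcription factor that is also on the marker list above, at 0.299 and Gas1, a hedgehog co-receptor, at 0.305. Gas1 measured 7.02, 5.72 and 4.51 in the positive arrays, against 8.06, 7.50 and 6.84 in the negative arrays. Nearest to the brightest probe set of Sdc1, which varied little, were the kinase Akt2, the transcription termination factor Ttf2 and the RNA helicase Ddx51 at 0.070, 0.071 and 0.073. The distances include positive replicate 3, where Gpc3 was not detected and Gpc3 and Synpo both stood at 4.05. They were not taken without that array, and no test was made of them.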

How the data were processed

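Sorted cells were profiled on Affymetrix mouse arrays with biotin-labelled RNA, per the labels' protocols. The authors deposited 1 intensity value per probe set and array, which was read as linear because the values are never negative and span several orders of magnitude. Per the submitters' processing notes GCOS was used for 1 sample. How probes were summarized and scaled is not stated by the labels or headers. Of 45101 probe sets 64 controls were set aside. The other 45037 were quantile normalized and transformed to log2(signal + 16), so fold changes of dim probe sets are understated, and weak signals of a dim array are stretched. Probe sets with a mean above the 30th percentile went into limma 3.58.1 (R 4.3.3; lmFit, then eBayes with trend = TRUE), two-sided, with Benjamini-Hochberg adjustment over all 31526 and a threshold of 0.05. Of the 45037, 34945 had 1 gene, 932 several and 9160 none; the symbols of 34741 probe sets matched RefSeq genes. The fit was tested on simulated data. Each p-value measures the spread between arrays within the groups, which limma moderates with that of all tested probe sets. There were 3 arrays a group, or 1 fewer in a group where an array was left out. That number sets the precision.

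Members, 6 heparan sulfate lists and 8 marker lists were chosen with earlier results of these data known. All members were named, then the 3 genes with the largest absolute difference in each heparan sulfate list and any called; Shh, Epcam, Col1a2 and Pecam1 by value; and the 3 nearest profiles to Gpc3 and Sdc1. Gpc5 was picked after its values were seen. The 16 alternatives covered normalization, pseudocount, filter, 1 probe set per gene, variance trend, array weights, a block and each array left out.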

Additional observations from a re-analysis of the deposited data

How the results depend on the processing

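Gpc3 kept a negative difference in all 16 alternatives, from -2.77 to -1.22, with adjusted p from 0.00303 to 0.986. Gpc1, Sdc1 1415943_at, Sdc1 1415944_at and Sdc3 1450027_at were negative in every alternative that tested them. Over the 21 tested probe sets 287 of 321 values under an alternative kept direction and call, 2 passed only with array weights (Gpc3 and Sdc1 1415943_at), and 32 changed sign, all on 11 probe sets. The 4 calls over the whole table became 742 with array weights, 36 with median centring, 9 without the filter, 2 with 1 probe set per gene, and 0 without the variance trend, with a pseudocount of 64, with values as deposited and with the replicate block. Leaving out 1 array gave 0 to 139, with 139 without positive replicate 3. The replicate block called 0 members; deviations of arrays with the same number correlated at 0.12, 0.032 and 0.104 and those of unlike numbers at -0.13 to 0.066, 5 of 6 arrays were nearest their own number, and the labels do not tie the numbers to shared embryos. Members called were 2 with array weights. Members without overlap were 3 of 9 with 1 probe set per gene (13.2% of all genes), 1 of 20 with median centring (7.41% of all probe sets) and 0 of 20 as deposited (5.38%), against 6 of 21. With 1 array left out they were 6 to 9. Without positive replicate 3 they were 8 of 20, where 11.2% of all probe sets were lower and 11.6% higher. In the 6 arrays those shares were 6.53% and 5.66%. For the other arrays left out no share was taken, so their counts cannot be read as a stronger separation. Genes called in the heparan sulfate lists, of 60 listed, were 4 with array weights (Ugdh, Col18a1, Hs3st3b1 and Ezr), where 742 of 31526 probe sets were called. With 1 array left out they were 0 to 1, where 0 to 139 probe sets were called. These counts are of genes by their brightest probe set, not all of the 60 were tested, and the totals beside them are of probe sets. The 2 are therefore not like for like. The causes were not tested.

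Sign changes were as follows. Median centring, as said above, corrected little of the unequal brightness of the arrays. With median centring and as deposited, Gpc4 1421088_at was -0.77 and -0.96, Gpc4 1436514_at -0.07 and -0.26, Gpc6 1428774_at -0.53 and -0.72, Gpc6 1419688_at -0.17 and -0.36, Gpc6 1441438_at -0.09 and -0.28, and Sdc3 1420853_at -0.26 and -0.45. Sdc2 1417012_at was -0.01 as deposited. With a pseudocount of 4, Gpc6 1419688_at was -0.08 and Sdc3 1420853_at -0.10. With array weights, Gpc4 1421088_at was -0.13, Sdc3 1420853_at -0.01 and Sdc4 1417654_at 0.03. With 1 array left out, Gpc4 1421088_at ran from -0.14 to 0.40, Gpc6 1437417_s_at from -0.49 to 0.04, Gpc6 1419689_at from -0.25 to 0.16 and Gpc6 1419688_at from -0.19 to 0.34. Sdc2 1448545_at ran from -0.63 to 0.18, Sdc3 1420853_at from -0.18 to 0.39 and Sdc4 1417654_at from -0.57 to 0.23. On positive replicate 3, 13 of 23 member probe sets were not above background, which limits every value that rests on that array.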
